A study of Mus musculus with 4 samples.

Results

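Layer 5 is the output layer of the cerebral cortex. Its thick-tufted pyramidal neurons send axons to the brainstem, spinal cord, thalamus and other subcortical targets, and depend on the transcription factors Fezf2 and Bcl11b for that identity. A second population, the intratelencephalic neurons, projects within the forebrain, including to the opposite cortex and to the striatum, and a sparser near-projecting population sends only short axons. Celsr3, the gene altered in some of these animals, encodes a seven-pass adhesion cadherin that guides growing axons.

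The spots described here were chosen by expression. A spot is a small disc of tissue under which transcripts are captured, and it holds several cells, so a level in a spot is a mixture. Counts in each spot were scaled to 10000 and log-transformed, each marker was turned into a z-score over all kept spots, and a layer 5 score was taken as the mean over Fezf2, Coro6 and Stac2. The rule also names Etv1, which was not used here. A spot was taken as layer 5 where this score was at least 1 and where a layer 6 score (Rprm, Nxph3, Trbc2, Myl4) and a layer 4 score (Rorb, Scnn1a, Rspo1) were both under 1. This gave 792 of 12601 kept spots. The levels of these marker genes define the spots and are no result.

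The sections came from 4 mouse brains that were fixed in formalin, embedded in paraffin, and cut coronally where the striatum shows. Of the mice, 2 were wild type for Celsr3 and 2 were Celsr3 heterozygous, with no treatment in either group. The labels give no age, sex or strain, and do not describe the Celsr3 allele. Spot names fall into 4 barcode sets, here sets 1 to 4, and 0 of the 4 can be tied to an animal by its labels, so no genotype comparison was made and every value is given per set.

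The layer 5 score passed 1 in 1471 spots. Of these, 560 also reached a layer 6 score of 1 and 134 a layer 4 score of 1, with 15 reaching both, and were left out. The 792 that remained had a median score of 1.55 and a highest score of 3.49. Many lay near a neighbouring layer, since 364 had a layer 6 score between 0.5 and 1 and 106 a layer 4 score in that range. At the edge of the rule, the 93 members with a score of 1.0 to 1.1 had, over all sets, 46.0 counts per 1000000 (CPM) of Fezf2, 192 CPM of Nefh and 1936 CPM of Slc17a7. The 104 spots just below, at 0.9 to 1.0 and under the same layer 4 and layer 6 limits, had 44.3, 142 and 1589 CPM of the same genes.

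Layer 5 spots made up 5.79% of the kept spots of set 1 (177 of 3055, 95% exact Clopper-Pearson interval 4.99 to 6.68), 7.76% of set 2 (218 of 2808, 6.80 to 8.82), 6.56% of set 3 (226 of 3444, 5.76 to 7.44) and 5.19% of set 4 (171 of 3294, 4.46 to 6.01). These intervals, like all those given here, cover counting error only and not the position of the cut or how much cortex a section holds. Layer 5 spots held 12000161, 9963817, 14980797 and 5683173 counts in sets 1 to 4, with medians of 67175, 46183, 68396 and 33475 counts per spot, so set 4 is the shallowest. The 792 spots had 748 different barcodes. Of these, 43 occurred in 2 or more sets, 0 in all 4 and 0 more than once in a set.

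A check against 9 genes of glutamatergic neurons of the pallium (among them Slc17a7, Neurod1, Neurod2, Neurod6, Nrn1, Camk2a, Emx1 and Tbr1) divided the layer 5 spots. Their mean z-score was above 0 in 717 spots and at or below 0 in 75, or 18, 8, 24 and 25 spots of sets 1 to 4. Few spots lay near 0, as 4 fell between -0.25 and 0 and 4 between 0 and 0.25. The data go against the label for the 75. Slc17a7, the vesicular glutamate transporter of cortical excitatory neurons, is 1 of the 9 genes, so its lower level in the 75 follows from the division. It stood at 94.4, 7.16, 79.7 and 345 CPM in the 75 and at 2813, 2562, 2378 and 2614 CPM in the 717. They entered through Coro6 (292 to 356 CPM) and Stac2 (191 to 307 CPM), while Fezf2 was 11.9 to 31.9 CPM against 87.7 to 128 CPM in the 717.

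**Figure D1:**
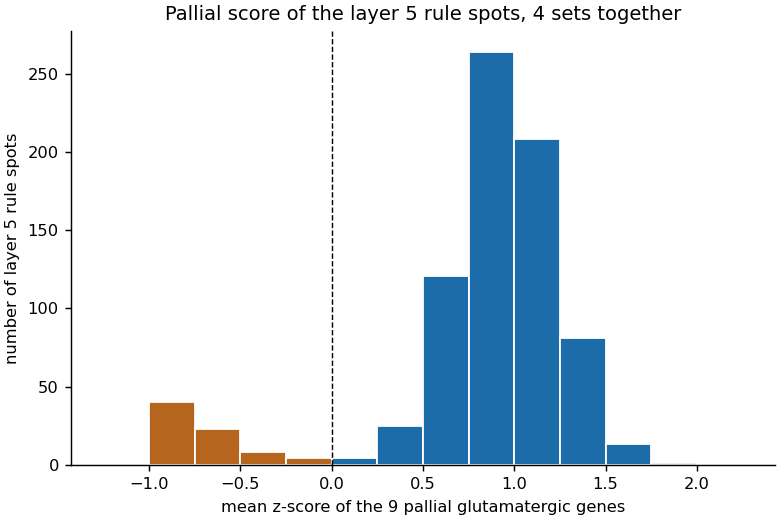
Number of layer 5 rule spots (vertical axis, 4 sets together) by the mean z-score of 9 pallial glutamatergic genes (horizontal axis, bins of 0.25), with the dashed line at 0. The 75 spots at or below 0 (brown) form a group of their own, and the 717 above 0 (blue) peak between 0.75 and 1.

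The genes that stood highest in the 75 relative to spots outside the rule were Lhx8, Rassf4, P2rx5, Shh, Esrrb, Nefh, Vamp1, Etnppl, Fam131c, Pvalb, Rimkla and Isoc1. Lhx8, a LIM homeobox factor, was at 66.7, 112, 43.5 and 49.5 CPM there and below 1 CPM in every set of the 717. Gad2, which makes GABA, was at 801, 912, 833 and 452 CPM in the 75 and at 216, 148, 180 and 135 CPM in the 717. Mbp, a myelin protein, was at 11827, 6240, 8081 and 11142 CPM in the 75 and at 2356, 2590, 1883 and 2552 CPM in the 717. The levels of both groups are descriptions of spots divided by their own expression. Below, "layer 5 spots" means all 792, and "pallial-positive" means spots of any layer with a score above 0, and the 75 are left out of every result on pallial-positive spots. This division was made after the data were seen.

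Layer 5 spots were set against the 11809 other kept spots and against 3 neighbouring layers picked in the same way, with each layer's own score at least 1 and the others under 1. There were 779 layer 4 spots, 1046 layer 6 spots and 1099 upper-layer spots (Cux2, Otof, Rasgrf2), of which 449, 1034 and 735 were pallial-positive. Layer 4 and upper-layer spots thus include many outside the pallium, and the pallial-positive values are the closer comparison of one cortical layer with another. Levels are CPM of counts summed over the spots of a set. A gene is called higher or lower where CPM plus 1 differed by at least 1.5-fold in the same direction in all 4 sets. Genes were tested where they averaged 10 CPM or more on either side of the comparison. A gene called lower may thus be under 10 CPM in layer 5 and tested only through its level on the other side. The printed ratios are of CPM itself. Because the spots were picked by expression and 1 library stands for each set, no test was made, and a lower level may mean fewer cells of a type or less RNA per cell, which cannot be told apart.

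Against all other spots, 197 of 10270 genes (1.92%) were called higher and 492 (4.79%) lower. Against layer 4 the counts were 152 of 10416 (1.46%) and 458 (4.4%), against layer 6 they were 277 of 10006 (2.77%) and 262 (2.62%), and against the upper layers 210 of 10138 (2.07%) and 316 (3.12%). Among pallial-positive spots 272 genes (2.73%) were higher and 251 (2.52%) lower than in layer 4, 257 (2.57%) and 287 (2.87%) than in layer 6, and 310 (3.09%) and 364 (3.63%) than in the upper layers. Of the genes first called against layer 4, 121 of 152 higher and 110 of 458 lower calls remained in pallial-positive spots. Of the other lower calls, 2 turned to higher. Against layer 6, 235 of 277 and 247 of 262 remained, and against the upper layers 186 of 210 and 244 of 316. Against other spots, the 717 alone gave 233 (2.27%) and 569 (5.54%), with 190 of the 197 and 481 of the 492 shared.

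The balance of these calls moved with scaling. TMM factors raised the log2 level of the layer 5 spots by 0.11 to 0.19 relative to other spots, relative to layer 4 by 0.14 to 0.19 and relative to the upper layers by 0.08 to 0.13. With them 359 genes were higher and 334 lower than in other spots (51.8% higher, against 28.6% as first called), 260 and 333 against layer 4 (43.8% against 24.9%), and 305 and 246 against the upper layers (55.4% against 39.9%). Against layer 6 the shift was at most 0.05.

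Few genes stood above every neighbouring layer. Leaving out the markers of the rule, 20 genes were higher than in each of layer 4, layer 6 and the upper layers; with Fezf2 and Coro6 the count was 22 of 10597 (0.208%). Among pallial-positive spots it was 29, or 31 of 10259 (0.302%) with both markers. The 20 were Amn, Bcat1, Bcl6, Bend5, Cend1, Cplx1, Deptor, Egln3, Galntl6, Gm19410, Nefh, Nefm, Npr3, Opn3, Parm1, Pou3f1, St6galnac5, Sulf2, Tox and Tshz2. With layer 5 and its neighbours all limited to pallial-positive spots, the calls of Cend1, Cplx1 and Nefm were lost and 12 were gained: Ankrd34b, Chst8, Diaph3, Dleu7, Hrh3, Lratd2, Nrip3, Nrsn2, Rab3c, Rhbdl3, Tmem150c and Trmt9b. Those that are in no fixed list and not ranked highest against the joined layers are named here after their values were seen.

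Of the 20, Npr3 and Opn3 are on the list of subcerebral projection neuron genes, and Bcl6 and Deptor on that of layer 5 intratelencephalic neurons. Of the 16 names on the subcerebral list, 13 were tested, and among pallial-positive spots 11 of the 13 were higher and 0 lower than in layer 4, 6 and 0 against layer 6, and 8 and 0 against the upper layers, where 2.73%, 2.57% and 3.09% of all genes were higher. The list's median log2 ratio was 1.57 to 1.84 against layer 4, 0.49 to 1.00 against layer 6 and 1.17 to 1.47 against the upper layers, and the median of all genes was between -0.02 and 0.00. In all 792 spots, the counts were 7, 5 and 6 higher with 0 lower, where 1.46%, 2.77% and 2.07% of all genes were higher. Against other spots 5 were higher and 1, Vat1l, was lower, where 1.92% and 4.79% of all genes were. Against layer 6, Pcp4, Bcl11b, Crym and Igfbp4 were not called. The list describes the same cell class that Fezf2 marks, so its direction is no independent evidence.

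Npr3, the clearance receptor for natriuretic peptides, was at 37.3, 27.0, 33.5 and 26.6 CPM in layer 5 spots of sets 1 to 4. All 4 values lay above those of every other layer, with ratios of 2.29 to 4.11 to layer 4, 2.53 to 3.29 to layer 6 and 2.26 to 3.32 to the upper layers. In set 1 the ratio to layer 6 was 3.29 with a 95% exact conditional binomial interval of 2.78 to 3.91. Opn3, an opsin, was at 25.9, 19.2, 18.4 and 18.3 CPM, again highest in layer 5, at 2.18 to 3.62 times layer 4 and 1.66 to 2.45 times layer 6.

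Pcp4, a calmodulin-binding protein, and Bcl11b were called higher than in layer 4 and the upper layers, and not against layer 6, among pallial-positive spots. In all 792 spots Bcl11b was not called against the upper layers, at 1.19 to 2.17 times. Pcp4 was at 910, 987, 743 and 966 CPM in pallial-positive layer 5 spots, which was 3.42 to 4.93 times layer 4 and 0.657 to 0.836 times layer 6. Bcl11b was at 26.8, 32.9, 32.7 and 35.0 CPM, which was 3.97 to 4.19 times layer 4 and 0.676 to 0.970 times layer 6. In both genes every set was below its own layer 6 value. Crym, which binds thyroid hormone, was at 70.1, 52.0, 82.0 and 70.4 CPM, with the widest ratio of the list to layer 4, 12.2 to 27.0, and 0.855 to 1.45 times layer 6.

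Vat1l and Lratd2 showed the reverse order, with a clear step down to layer 6. Vat1l was at 63.1, 49.0, 57.1 and 53.6 CPM in pallial-positive layer 5 spots, 3.16 to 3.48 times layer 6 and 3.14 to 4.74 times layer 4. Against all other spots it was lower, at 0.372 to 0.467 times, so it is high elsewhere in these sections. Lratd2 was at 13.1, 19.4, 11.8 and 25.7 CPM, 3.28 to 4.76 times layer 6 and 2.72 to 4.34 times layer 4. Without the pallial limit neither gene was called against layer 4, with Vat1l at 0.521 to 0.981 times and Lratd2 at 0.930 to 1.95 times.

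Genes of layer 5 intratelencephalic neurons were also higher. Of 6 listed, 4 were tested, and all 4 (Bcl6, Deptor, Hsd11b1, Tcap) were higher than in layer 6 and than in other spots, in all 792 and in pallial-positive spots. Against the upper layers 3 were higher. Of all genes, 2.77% were higher than in layer 6, 1.92% than in other spots and 2.07% than in the upper layers. In pallial-positive spots these shares were 2.57%, 2.27% and 3.09%. Against layer 4, Bcl6 and Deptor were higher and, in pallial-positive spots, Tcap was lower at 0.369 to 0.535 times. Of all genes 1.46% were higher than in layer 4, and in pallial-positive spots 2.73% were higher and 2.52% lower. The list's median log2 ratio to layer 6 was 1.21 to 1.36 in all spots, beside -0.01 to 0.00 for all genes.

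Bcl6, a transcriptional repressor, was at 76.8, 82.8, 94.7 and 78.1 CPM in layer 5 spots. It stood 2.41 to 2.61 times above layer 4, 2.38 to 2.98 times above layer 6 and 1.72 to 2.15 times above the upper layers, and layer 5 was the highest of the 4 layers in every set. Deptor, an inhibitor of the mTOR kinase, was at 15.1, 12.6, 15.8 and 8.27 CPM, 1.83 to 4.28 times layer 4 and 1.80 to 2.71 times layer 6. Hsd11b1, which regenerates active glucocorticoid, was at 43.1, 36.7, 37.4 and 34.7 CPM, 3.02 to 3.45 times layer 6 and, without a call, 1.30 to 1.99 times layer 4.

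Near-projecting genes were patchy. Of 6 listed, 3 or 4 were tested, and Tshz2 and Lypd1 were higher than in layer 4 and layer 6. Of all genes 1.46% and 2.77% were higher in those comparisons, and 2.73% and 2.57% in pallial-positive spots. Against the upper layers only Tshz2 was higher, and against other spots 0 of 3 were called, in all and in pallial-positive spots. The shares of all genes higher there were 2.07% and 1.92%, and 3.09% and 2.27% in pallial-positive spots. For a list this short, 0 calls are near such shares. Tshz2, a zinc finger factor, was at 121, 37.9, 111 and 91.3 CPM, so that set 2 was the lowest, and at 3.88 to 11.6 times layer 6. It was uneven among spots. In set 1 the 10th percentile, the median and the 90th percentile over 177 layer 5 spots were 14.3, 55.1 and 363 CPM, and the Pearson chi-square per degree of freedom for equal levels was 10.9. In set 2 it was 1.17, close to what counting error alone gives. For comparison within genes, Npr3 had 1.55, 1.30, 1.82 and 1.01 in sets 1 to 4.

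**Figure D2:**
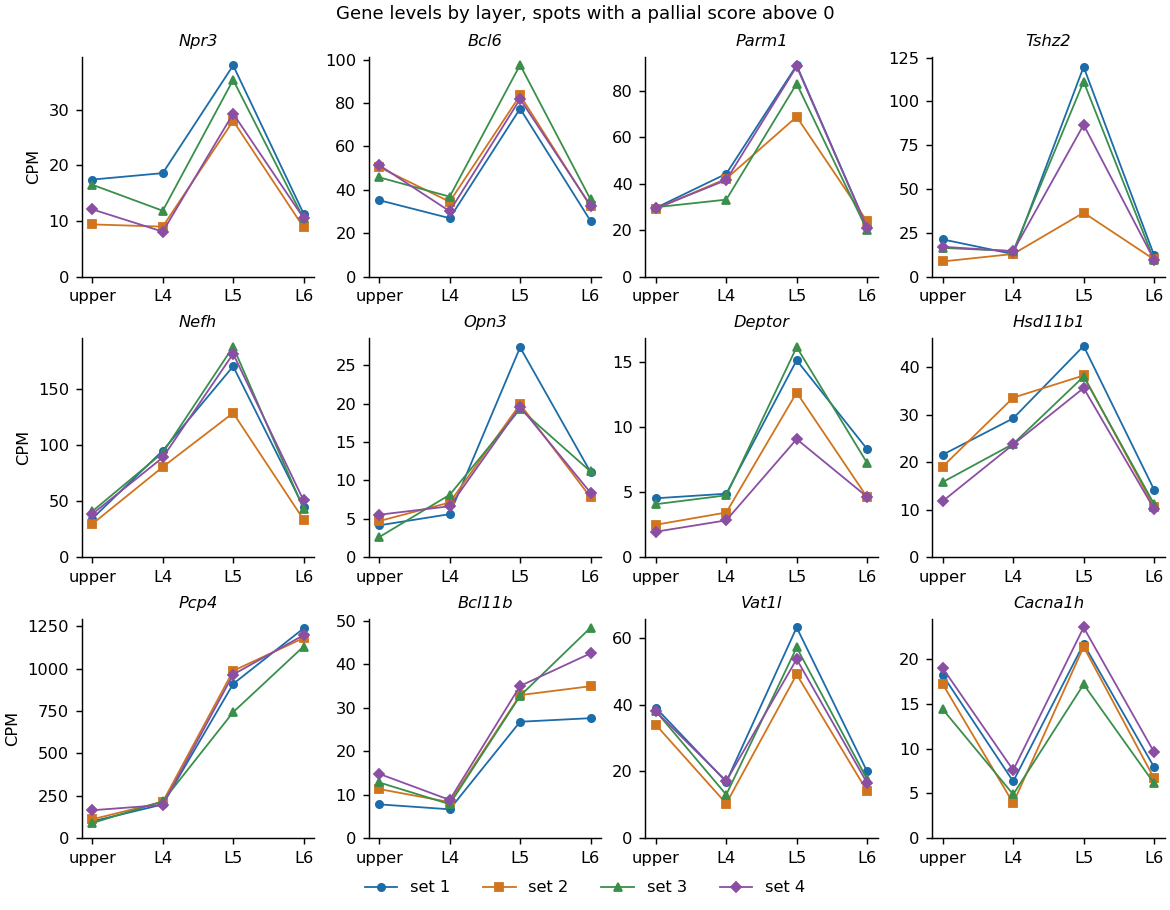
CPM (vertical axes, from 0) of 12 genes in pallial-positive upper-layer, layer 4, layer 5 and layer 6 spots (horizontal axes), with a line for each barcode set joining its 4 layers. Npr3, Bcl6, Parm1, Tshz2, Nefh, Opn3 and Deptor peak in layer 5 in every set, while Pcp4 and Bcl11b are highest in layer 6.

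Against the 3 layers joined, 83 genes (0.82%) were higher and 181 (1.79%) lower. With TMM factors the counts were 123 and 137, with RLE factors 134 and 138, and among pallial-positive spots 106 (1.06%) and 121 (1.21%), so the excess of lower genes was smaller in each. Ranked by the smallest ratio over the sets, the higher genes were led by Nefh, Npr3, Parm1, Syt2, Tox, Gm19410, Tshz2, Pou3f1, Sgpp2, Cplx1, Pvalb and Amn, with smallest log2 ratios of 1.64 down to 1.10. When the neighbours were limited to spots with a Neurod6 z-score of at least 0, which left 1851 of 2924, 5 of these 12 (Tshz2, Nefh, Tox, Parm1 and Npr3) were again among the highest. Parm1, a mucin-like membrane protein, was at 93.3, 73.3, 82.0 and 89.4 CPM, 3.09 to 4.41 times layer 6. Tox, a chromatin-binding HMG-box protein, was at 66.0, 50.4, 47.3 and 50.9 CPM. In pallial-positive spots it stood at 4.84 to 5.98 times layer 4 and 1.98 to 2.86 times layer 6. Pou3f1, a POU-domain factor, was at 43.0, 105, 44.7 and 96.6 CPM, so that sets 2 and 4 were above sets 1 and 3, and it was 2.60 to 4.08 times layer 6.

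Syt2 and Pvalb, found in fast-firing inhibitory neurons among others, were called higher than in layer 6 and not against layer 4. Pvalb was at 448, 442, 477 and 571 CPM in layer 5 spots, 2.48 to 3.10 times layer 6. Against pallial-positive layer 4 it was 0.877 to 1.23 times, with no call, and against all other spots its call was lost without the 75. In the 75, Pvalb was at 1227, 473, 412 and 1321 CPM. Syt2, a synaptic vesicle calcium sensor, likewise stood at 3.56 to 3.80 times layer 6 and at 0.973 to 1.24 times layer 4 in pallial-positive spots.

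The lowest ranked were Oxt, Ccdc153, Tmem212, Baiap3, Gal, Cplx3, Sulf1 and Plk5. The first 5 lost their call once the neighbours were limited to pallial-positive spots. Plk5, a polo-like kinase family member, was at 5.33, 7.23, 5.21 and 10.0 CPM and stayed lower, at 0.171 to 0.249 times pallial-positive layer 4, 0.213 to 0.323 times layer 6 and 0.0590 to 0.0738 times the upper layers. In all, 10 genes were lower than in each neighbouring layer (0.0944%): Adra2a, Atp6ap1l, Dclk3, Gfap, Ntn5, Plk5, Rsph9, Smoc2, Sulf1 and Syt10. Among pallial-positive spots there were 9 (0.0877%), with Atp6ap1l, Dclk3, Ntn5, Plk5 and Smoc2 in both. Dclk3, a doublecortin-like kinase, was at 38.6, 37.7, 52.2 and 40.5 CPM, at 0.440 to 0.593 times layer 6.

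Genes of the layers on each side were lower, as the picking of the spots favours. Of 10 upper-layer genes, 6 were lower than in pallial-positive upper-layer spots (Calb1, Cux1, Enpp2, Lamp5, Nectin3, Wfs1), with a list median log2 ratio of -1.15 to -0.83. Of all genes 3.63% were lower there. Calb1, a calcium-binding protein, was at 88.2, 89.9, 98.5 and 110 CPM in pallial-positive layer 5 spots, 0.109 to 0.139 times the upper layers and 1.29 to 1.75 times layer 6. Lamp5 was graded in pallial-positive spots, at 0.388 to 0.617 times the upper layers and 2.61 to 3.87 times layer 6. Of 10 genes of layers 6 and 6b, 8 were lower than in layer 6 spots, in all spots and in pallial-positive ones. The shares of all genes were 2.62% and 2.87%. The list's median log2 ratio in all spots was -2.22 to -1.94. Cplx3, a complexin of the deepest neurons, was at 6.25, 7.03, 6.48 and 5.46 CPM, or 0.0411 to 0.0559 times layer 6, and Ccn2 at 0.0480 to 0.0801 times. Sox5, which acts in deep-layer neurons, was not called against layer 6, at 0.665 to 0.727 times. Against all other spots it was the 1 gene of the 10 called higher. In the same comparison 4 of the list were lower, Ccn2, Cplx3 and Syt6 among them, and the list median was -0.68 to -0.57. Of all genes 1.92% were higher and 4.79% lower there.

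Neurofilament genes, whose products fill large axons, were higher in part. Of 9 tested of the neurofilament and axon list, 3 were higher than in layer 6 (Nefh, Nefl, Nefm), 3 than in the upper layers (Ina, Nefh, Nefm), and 0 were lower, in all 792 spots and in the pallial-positive ones. Of all genes 2.77% were higher than in layer 6 and 2.07% than in the upper layers in all spots, and 2.57% and 3.09% in pallial-positive ones. Nefh, the heavy chain, was at 190, 144, 190 and 229 CPM in the 792 and at 171, 129, 188 and 182 CPM in the 717. In pallial-positive spots it was 1.60 to 2.04 times layer 4, 3.57 to 4.35 times layer 6 and 4.32 to 4.93 times the upper layers. Nefm, the medium chain, was at 489, 582, 488 and 647 CPM there, 1.77 to 2.28 times layer 6 and, without a call, 1.28 to 1.45 times layer 4. Gap43, the growth cone protein, was called only against pallial-positive layer 4.

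Of 16 ion channel genes tested, 7 were higher than in layer 6 in pallial-positive spots (among them Cacna1h, Kcna2, Kcnab3, Kcnq5, Scn1a and Scn4b) and 0 lower, beside 2.57% of all genes higher, with a list median log2 ratio of 0.35 to 0.59. Against layer 4, 2 were higher (Cacna1h, Kcnn2) and 1 was lower (Kcnab3), and the median was -0.15 to 0.00. Of all genes, 2.73% were higher and 2.52% lower there. Cacna1h, a T-type calcium channel, was at 21.7, 21.4, 17.2 and 23.5 CPM, 3.10 to 5.47 times layer 4 and 2.45 to 3.19 times layer 6 in pallial-positive spots. Kcnab3, a potassium channel beta subunit, was at 96.4, 64.3, 112 and 61.7 CPM there, 2.60 to 3.40 times layer 6 and 0.288 to 0.408 times layer 4, which had the highest level of the 4 layers.

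Receptors for neuromodulators differed gene by gene. In pallial-positive spots, of 15 tested against layer 6, 3 were higher (Adra1d, Crhr1, Htr2c) and 3 lower (Adra2a, Chrna5, Oprk1), and of 13 tested against layer 4, 4 were higher (Chrna4, Cnr1, Htr1a, Htr2c) and 0 lower. Over all genes the shares were 2.57% higher and 2.87% lower against layer 6, and 2.73% higher against layer 4. The list median against layer 6 was -0.26 to 0.02. The adrenergic receptors ran in opposite directions. Adra1d was at 127, 135, 158 and 133 CPM in layer 5 spots and 4.45 to 6.20 times layer 6, while Adra2a was at 17.2, 13.3, 20.2 and 17.6 CPM and 0.183 to 0.267 times layer 6. Adra1d was not called against layer 4, at 0.657 to 0.993 times in pallial-positive spots. Htr1f, a serotonin receptor, was at 25.5, 29.3, 26.0 and 27.5 CPM, 2.55 to 4.19 times the upper layers and 0.579 to 0.773 times layer 6. Chrna4, a nicotinic receptor subunit, was at 52.1, 57.1, 42.8 and 57.0 CPM in pallial-positive spots, 2.96 to 3.58 times layer 4 and 0.588 to 0.702 times layer 6. Of the striatal dopamine receptors, Drd1 was at 1.92, 1.10, 1.80 and 1.76 CPM, 0.0614 to 0.176 times all other spots.

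Markers of other cell types were present, and those of oligodendrocytes were lower than in layer 6 and in part higher than in the upper layers. All 8 oligodendrocyte genes were lower than in layer 6 and than in other spots, and 0 of 8 were called against layer 4. Against the upper layers 4 were higher in all 792 spots and all 8 in pallial-positive ones. Of all genes, 2.62% were lower than in layer 6, 4.79% lower than in other spots and 2.07% higher than in the upper layers. In pallial-positive spots these shares were 2.87%, 5.54% and 3.09%. The summed level of the 8 was 5188 to 7148 CPM over the sets in layer 5 spots, 11700 to 15107 in layer 6, 4583 to 7813 in layer 4 and 1958 to 4437 in the upper layers, and no gene of the list was at 0. Mbp was at 2983, 2744, 2226 and 3499 CPM in the 792 and at 2356, 2590, 1883 and 2552 CPM in the 717. The part of these cells in the gene ratios above was not tested. Of 7 microglial genes 0 were called in any comparison, with sums of 268 to 322 CPM in layer 5 and 260 to 275 CPM in layer 6. Over these comparisons 0.82% to 5.54% of all genes were called in each direction, so 0 of 7 is near that share.

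The interneuron list summed to 3415, 3636, 2531 and 3679 CPM in layer 5 spots and 2269 to 3573 CPM in layer 6. In pallial-positive spots Pvalb alone of 11 was higher than in layer 6, and Lhx6 and Sst were higher than in layer 4. Of all genes 2.57% and 2.73% were higher there. In all spots 4 of the 11 were higher than in layer 6, where 2.77% of all genes were. Gad1 and Lhx6 were among these 4 and were not called in pallial-positive spots. Other comparisons of pallial-positive spots went both ways. Against the upper layers 2 were higher and 2 lower, where 3.09% and 3.63% of all genes were. Against other spots 2 were higher and 3 lower, where 2.27% and 5.54% of all genes were. Sst, the somatostatin gene, was at 802, 1165, 390 and 989 CPM, lowest in set 3. Of 10 striatal genes 9 were lower than in other spots, where 4.79% of all genes were. The 10 summed to 372 to 476 CPM against 2582 to 4961 CPM, and 2 of the 792 spots had a striatal score of 1 or more. Agt, expressed by astrocytes of some subcortical regions, fell from 25.6, 11.8, 23.9 and 42.4 CPM in the 792 to 4.11, 4.51, 4.81 and 6.92 CPM in the 717.

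**Figure D3:**
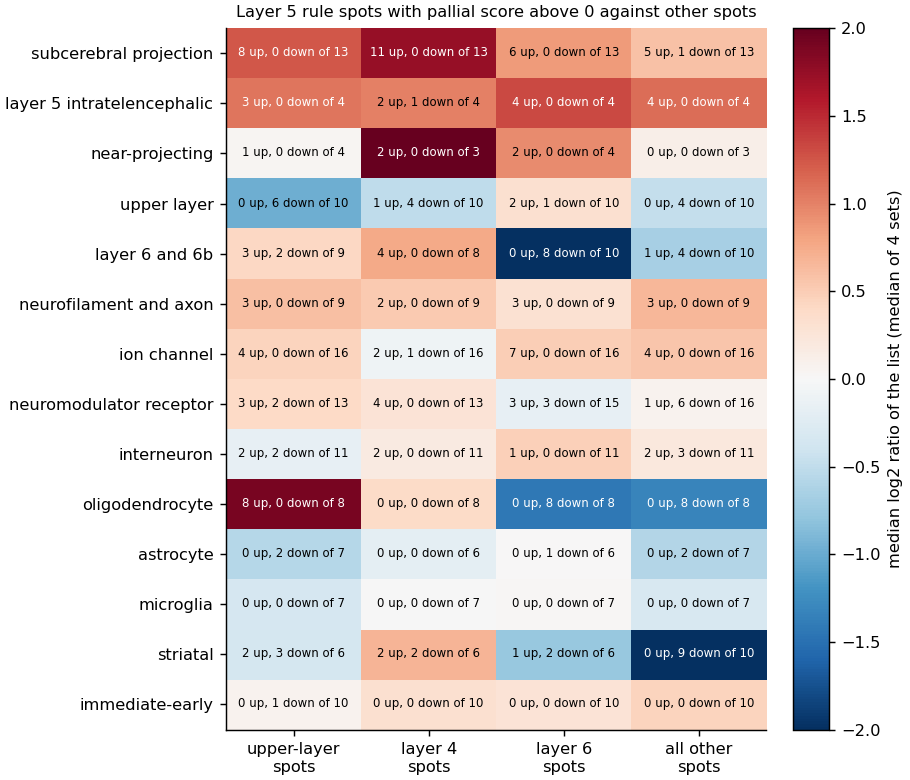
Median log2 ratio of each gene list (colour, median of the 4 sets, values beyond the ends of the scale drawn at its ends) in pallial-positive layer 5 spots against upper-layer, layer 4, layer 6 and all other spots (columns), with the number of genes called higher (up) and lower (down) of those tested in each cell. Of 13 subcerebral genes 8, 11 and 6 are called higher against the upper layers, layer 4 and layer 6, 8 of 10 layer 6 genes are lower against layer 6, and the 8 oligodendrocyte genes are lower against layer 6 and higher against the upper layers.

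Layer 5 spots were then divided by which neighbour they resembled more, with the layer 6 score at or above the layer 4 score in 127, 187, 150 and 122 spots of sets 1 to 4 and below it in 50, 31, 76 and 49. Of 10014 genes 14 (0.14%) were higher on the layer 6 side and 48 (0.479%) lower, and without the 75, 7 (0.0708%) and 17 (0.172%) of 9892. These counts include marker genes of the scores that made the division, whose calls are no result. In both counts the 4 layer 6 markers (Rprm, Nxph3, Trbc2, Myl4) were among the higher genes. Rspo1 was among the lower ones, and in the 717 so was Scnn1a. Apart from the markers, the lower genes of the first count were led by Igsf1, Agt and Lhx8. In the 717, Syt6, a synaptotagmin of layer 6 neurons, was 2.00 to 2.66 times as high on the layer 6 side as on the layer 4 side. Syt6 was at only 4.27 to 6.44 CPM on the layer 4 side, and its interval lay above 1 in 2 of the 4 sets. In the 792 it was not called, at 1.51 to 2.11 times. Adam33 and Thsd7a were 0.129 to 0.402 and 0.339 to 0.462 times as high in the 717, with intervals below 1 in 3 and 4 sets. Apart from the layer 4, layer 6 and upper-layer marker genes of the scores, in the 717 Syt6, Gfap and Zic1 were the genes of any list that were called. The intratelencephalic list had 0 calls in the 792 and in the 717. The subcerebral list had 1 in the 792, Igfbp4 at 1.93 to 2.86 times the layer 4 side, and 0 in the 717, where Igfbp4 was 1.39 to 2.23 times.

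Between sets, layer 5 spots differed by very unequal numbers of genes. Of 9781 genes that averaged 10 CPM or more, 25 (0.256%) were 2-fold or more apart when set 1 was compared with set 3, and 29 (0.296%) when set 2 was compared with set 4. Set 1 differed from set 2 in 687 (7.02%) and from set 4 in 777 (7.94%), and set 3 differed from set 2 in 490 (5.01%) and from set 4 in 541 (5.53%). Without the 75, the closest pairs gave 26 (0.267%) and 28 (0.288%), and the others 700 (7.19%), 785 (8.06%), 509 (5.23%) and 572 (5.88%) in the same order. The median counts per spot ran the same way, with sets 1 and 3 close to each other (67175 and 68396) and above sets 2 and 4 (46183 and 33475). The part of depth in these counts was not tested, and whether sets share a slide or a run is not given in the sources used here. With TMM factors the share of these genes that was higher in the lower-numbered set went from 63.8% to 76.8% (set 1 with 4), from 35.1% to 24.1% (set 2 with 3) and from 59.5% to 73.9% (set 3 with 4). Each side is 1 library, so no difference between sets has a replicate check.

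**Figure D4:**
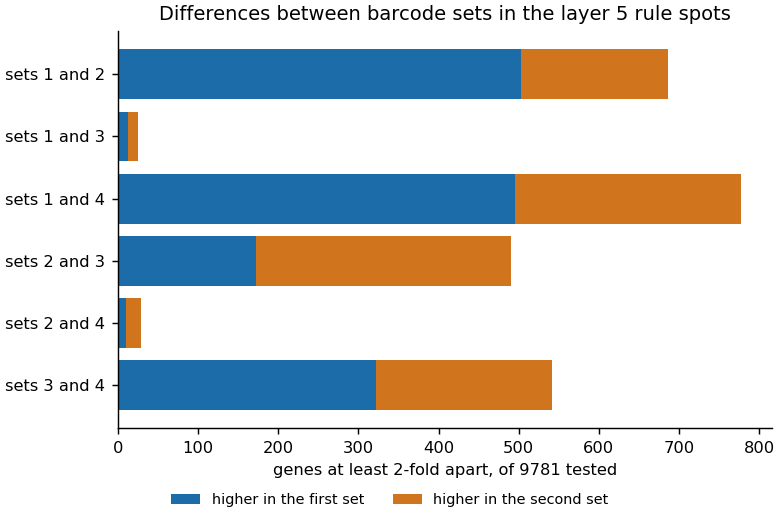
Genes at least 2-fold apart in layer 5 rule spots (horizontal axis, of 9781 tested) for each pair of barcode sets (vertical axis), divided by the set in which they were higher. Sets 1 and 3 differ in 25 genes and sets 2 and 4 in 29, and the other pairs in 490 to 777.

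Immediate-early genes, which neurons switch on soon after activity, had the widest spread of the lists. Their median range over the sets was 2.09 on the log2 scale, beside 0.50 for all 9781 genes, 1.67 for the thalamic list (2 genes tested), 1.14 for the near-projecting list and 1.01 for the layer 6 list. Of 9 tested, 8 were 2-fold higher in set 4 than in set 1, 8 in set 4 than in set 3, and 7 in set 2 than in set 3, where 2.87%, 2.24% and 1.76% of all genes were. Fewer, 4 of the 9, were 2-fold higher in set 2 than in set 1, where 184 of the 9781 genes were. None of the 9 was 2-fold apart when set 1 was compared with set 3 or set 2 with set 4. Fos, an AP-1 subunit, was at 19.4, 80.8, 12.1 and 111 CPM in sets 1 to 4, so that sets 2 and 4 lay well above sets 1 and 3. Arc, which acts at synapses, was at 177, 606, 146 and 933 CPM, and Nr4a1, a nuclear receptor, at 98.3, 191, 68.6 and 295 CPM. Egr1, a zinc finger factor, moved less, at 336, 440, 260 and 435 CPM.

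These genes had few calls in layer 5. Of 10 tested against all other spots, and 9 each against layer 4 and layer 6, 0 were called. Over all genes the shares higher and lower were 1.92% and 4.79%, 1.46% and 4.4%, and 2.77% and 2.62%. For a list this short, 0 calls are near those shares. The list's median log2 ratio to other spots was 0.30 to 0.61 over the sets, beside -0.08 to -0.07 for all genes. It was smaller against layer 6, at 0.04 to 0.40, and against the upper layers, at 0.12 to 0.22. Egr2 was lower than in the upper layers. Fos was 1.15 to 1.34 times layer 6 and 1.24 to 1.36 times all other spots in every set. Arc reached 1.36 to 2.06 times other spots, with no call. In layer 6 spots Arc was at 246, 583, 182 and 1216 CPM, above layer 5 in sets 1, 3 and 4 and below it in set 2.

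Celsr3 itself was at 30.5, 46.0, 24.1 and 42.6 CPM in layer 5 spots of sets 1 to 4. Sets 2 and 4 lay above sets 1 and 3, by less than 2-fold for each pair, and the levels were used to assign no genotype. It was 0.897 to 0.980 times all other spots, 0.768 to 1.06 times layer 4, 0.846 to 1.01 times layer 6 and 0.805 to 0.938 times the upper layers, with no call. Its spread over the layer 5 spots of a set was close to counting error, with a chi-square per degree of freedom of 0.996, 0.923, 1.18 and 1.01. Celsr2, its paralog, ran the other way over the sets, at 240, 205, 242 and 197 CPM, and was 1.21 to 1.34 times all other spots, with no call. Celsr1 was at 2.50, 2.31, 3.47 and 1.94 CPM and too low to be tested.

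**Figure D5:**
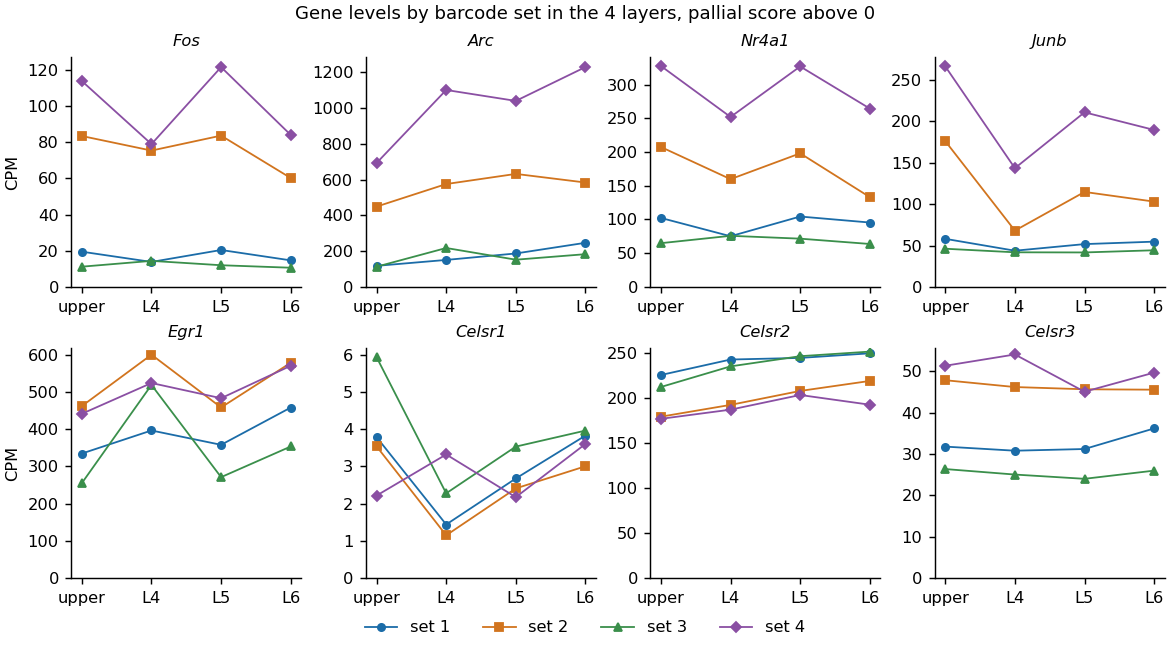
CPM (vertical axes, from 0) of 5 immediate-early genes and the 3 Celsr genes in pallial-positive upper-layer, layer 4, layer 5 and layer 6 spots (horizontal axes), a line for each barcode set. Fos, Arc, Nr4a1 and Junb are higher in sets 2 and 4 than in sets 1 and 3 in each layer, as is Celsr3, while Celsr2 is lower.

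The 10 genes with the widest range over the sets were Gm10260, Amd1, Olfr305, Tmem267, H2-D1, Isoc2a, Me1, Txlna, Ttr and Hbb-bs. Most were near absent in 1 set. Amd1, an enzyme of polyamine synthesis, was at 22.3, 14.0 and 44.7 CPM in sets 1, 2 and 4 and had 0 counts in set 3, which allows up to 0.200 CPM there. In the other spots it was at 22.7, 15.0 and 40.4 CPM with 0 CPM in set 3, so the gap spans the section. Me1, malic enzyme, had 0 counts in set 4, which allows up to 0.528 CPM, and was at 21.8, 10.3 and 21.3 CPM in sets 1 to 3. Gm10260 was at 2.08 CPM in set 1 and at 140, 115 and 265 CPM in sets 2 to 4. Ttr, the transthyretin gene of the choroid plexus, was at 34.4, 5.52, 97.7 and 67.4 CPM, and Hbb-bs, a haemoglobin gene of blood, at 5.25, 11.1, 3.07 and 59.7 CPM.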

How the data were processed

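The assay was 10x Visium CytAssist on FFPE mouse brain, per the labels' protocols. The authors deposited 1 table of raw counts, 19465 genes by 12602 spots. Space Ranger and Seurat are named in the submitters' processing notes. The role of each, the genome build and the probe set are not given in the sources used here. Spots under 500 counts were left out (1 spot), leaving 12601. Members and lists were chosen with earlier results of these data known. Fam84b is an older symbol of Lratd2. Some genes of the lists are counted and not reported by name here.

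Levels are summed counts per 1000000 (CPM). Calls used CPM + 1, a mean of at least 10 CPM and 1.5-fold in all 4 sets, or 2-fold between sets, which understates changes of low genes. Genes named were those of the lists, and, by rank, the 12 highest and 8 lowest of members over the 3 layers joined and the 10 with the widest range over sets. Exact intervals are at 95%. The planned edgeR quasi-likelihood test of genotype was not run, because no set could be tied to an animal. The scaling alternatives, TMM and RLE, were computed with edgeR 4.0.16 under R 4.3.3, and everything else with Python 3.11.15, numpy 2.4.6, scipy 1.17.1, pandas 2.3.3 and matplotlib 3.10.9. Alternatives changed the score threshold (0.8, 1.2), the minimum (2000 counts), z-scores within sets, each score gene, the exclusion by layer 4 and layer 6 scores, thinning to 10000 counts, scaling, fold, filter, added CPM (10), mean over spots, each set and the comparison spots. The pallial limit was added after seeing the data. The fold calls, the calls between sets and the ratio interval were tested on simulated counts that held counting error only. The other steps were not tested in this way.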

Additional observations from a re-analysis of the deposited data

How the results depend on the processing

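No paired analysis was possible because the barcode sets are not numbered as in the labels and 0 of the 4 could be tied to an animal. For the same reason the edgeR, DESeq2 and replicate block fits of genotype were not run, and leaving out Etv1 is no further alternative, since every score here was already made without it. The share of layer 5 spots became 10.7%, 11.3%, 13.2% and 11.3% in sets 1 to 4 with no exclusion by layer 4 or layer 6 score, and 8.05%, 10.3%, 10.1% and 7.98% without Fezf2. In set 2 it was 6.66% at a threshold of 1.2 and 6.54% after thinning, which left out 199 spots, 168 of them in set 4. In set 4 it was 4.43% with a pallial score above 0. Genes higher than in other spots (197) numbered 359 with TMM and 359 with RLE factors, 37 at 2-fold, 128 with 10 CPM added, 126 at a threshold of 0.8 and 109 without Fezf2. Lower genes (492) numbered 202 at 2-fold, 842 with no filter, 280 with 10 CPM added, 310 at 0.8 and 257 without Fezf2. Against layer 4, higher genes (152) numbered 260 with TMM, 253 with RLE, 46 at 2-fold, 287 with Neurod6-positive comparison spots and 272 with pallial-positive spots. Lower genes (458) numbered 250 at 2-fold, 775 with no filter, 249 with 10 CPM added, 266 with Neurod6-positive and 251 with pallial-positive spots. Against layer 6, 277 higher and 262 lower genes became 87 and 89 at 2-fold, and 165 and 164 with 10 CPM added. Against the upper layers, 210 and 316 became 71 and 119 at 2-fold, and 133 and 183 with 10 CPM added, and Neurod6-positive spots gave 347 higher. With 10 CPM added, genes 2-fold apart numbered 309, 16, 359, 206, 16 and 227 for sets 1 and 2, 1 and 3, 1 and 4, 2 and 3, 2 and 4, and 3 and 4. With no filter they numbered 85 for sets 1 and 3, 1293 for 1 and 4, 151 for 2 and 4 and 881 for 3 and 4. Without Coro6 they numbered 39 for sets 1 and 3 and 47 for 2 and 4, and for 2 and 4 also 59 at 0.8 and 54 without Fezf2. Apart from what each setting changes by construction, the cause was not tested. Leaving out each set in turn gave 203 to 247 higher and 506 to 579 lower than other spots, 161 to 188 and 473 to 565 against layer 4, 289 to 323 and 273 to 305 against layer 6, and 223 to 299 and 346 to 402 against the upper layers. A call needs the fold in every set, so leaving out a set can only keep or add calls. These counts are therefore no check of the calls. Of the values for single genes, 620 kept their call or lack of a call, 22 lost a call, 5 gained a call and 1 reversed. The reversed value was Baiap3 against the 3 layers joined, at 0.06 (log2) with Neurod6-positive spots. A change of direction was looked for only in values first called. Set 4 has the fewest counts, so its low genes are the least precise.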
